A study of Drosophila melanogaster with 9 samples.

Results

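The miR-314 hairpin of Drosophila melanogaster gives 2 mature miRNAs, dme-miR-314-5p and dme-miR-314-3p (miR-314-5p and miR-314-3p below), and their levels, their ratio and their course over time were described in adult midguts. The members were the rows of these names in the deposited expression table, 2 of 467 miRNAs. Both passed the filter on low values that left 73 miRNAs for testing. The hairpin was chosen by its measured levels in these same groups, above all the high level of the 5p arm at Pe day 3, so the levels and ratios below are a description and no test of them is given.

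All 9 libraries came from midguts of wild-type Oregon-R flies. Mock flies received sucrose and were taken at day 0, when 4 to 5 days old. The Pe day 0 group, of the same age, and the Pe day 3 group, aged 7 to 8 days, received the treatment that the labels write as Pe without spelling it out. Each group held 3 libraries, and the labels do not say whether these came from separate pools of flies. No mock group of day 3 was analysed here, so the time after treatment and the age of the flies cannot be told apart.

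A miRNA hairpin is cut first in the nucleus and then by Dicer-1 into a short duplex, of which one strand is usually kept in Argonaute1 and the other is degraded. The kept strand pairs through its seed with messenger RNAs and lowers their output, so the arms of a hairpin address different targets. The fly midgut renews its epithelium from intestinal stem cells, and several miRNAs are known to act in those cells or in their daughters.

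The annotation (BDGP6.54, Ensembl release 115) places the mir-314 hairpin on the plus strand of chromosome 3L, from 11773012 to 11773101. The gene carries the identifier FBgn0262396 and is 90 bases long. It overlaps no other named gene, so it lies in neither an exon nor an intron. The 5p arm runs from 11773014 to 11773039 and the 3p arm from 11773081 to 11773101, with 41 bases between them. Within 10 kb lay 1 other hairpin, mir-956, on the minus strand from 11773731 to 11773878, with 629 bases between the hairpins. miR-956-3p is the most abundant miRNA of these midguts, at 69.8% to 80.2% of the reads of a library. The mucin gene Muc68D, also on the minus strand, lay 854 bases away on the other side, with its start toward the hairpin.

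**Figure D1:**
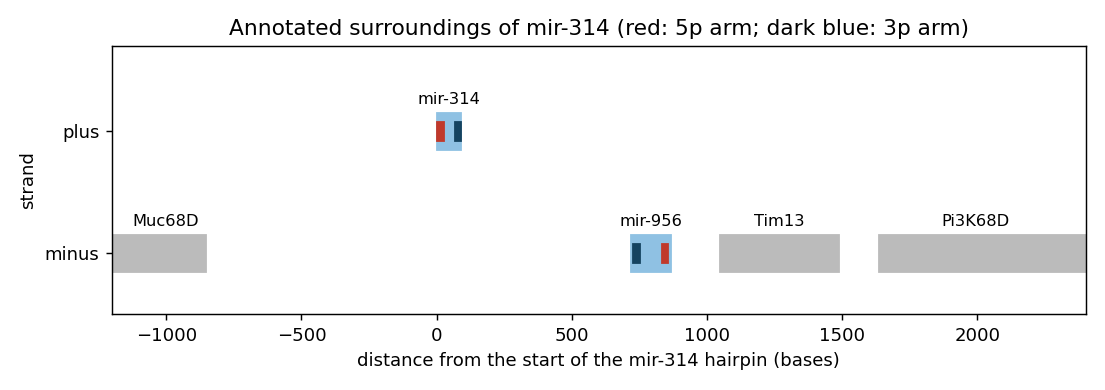
Annotated features around the mir-314 hairpin, by distance from its start in bases (horizontal axis) and by strand (vertical axis). Pale blue boxes are hairpins, red and dark blue boxes their 5p and 3p arms, and grey boxes protein-coding genes; mir-956 lies 629 bases away on the opposite strand.

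The annotated arms differ in length. miR-314-5p is 26 bases long and miR-314-3p 21, against a median of 22 over 446 annotated arms of hairpins with 2 arms. Of those arms, 4, or 0.897%, had 26 bases or more. Among the 73 tested miRNAs, 62 could be matched to an annotated length, and miR-314-5p was the longest of them. The deposited table does not give the lengths of the reads that were counted.

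The depth of the libraries was 224873 to 1238105 miRNA reads, recovered from the deposited reads per 1000000 miRNA reads (RPM) as set out under the processing. The midgut markers miR-956, miR-263a, miR-31a, miR-281-1 and miR-281-2 summed to 772698 to 842636 RPM in every library. Of this sum miR-956-3p alone made up 698305 to 801876 RPM, and 1 of the 8 rows was at 0 throughout. Between Pe day 3 and mock, limma called miR-281-1-5p and miR-281-2-5p lower (adjusted p under 0.05), with log2 differences of -1.03 and -1.02. It called 17.8% of all tested miRNAs there and none of the other tested arms of this list. The muscle list (miR-1 and miR-133) reached 76.3 to 110 RPM in mock, 64.2 to 140 at Pe day 0 and 267 to 382 at Pe day 3. Of its 4 rows, miR-1-3p carried nearly all of this, miR-133-3p was listed in 1 library, and miR-1-5p and miR-133-5p were at 0 in all 9. The neuron list had its highest library at 8.48 RPM in mock, 18.5 in Pe day 0 midguts and 53.4 in Pe day 3 midguts, the ovary list 11, 122 and 27.5, and the early embryo list 33, 15.3 and 23.1, each with a lowest library between 0 and 5.51. The testis list was at 0 in all 9 libraries.

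miR-314-5p was the scarcer arm at day 0 and was higher in Pe day 3 libraries, though by very different amounts. In mock midguts it stood at 90.5, 130 and 67.4 scaled RPM, from 48, 52 and 32 reads (replicates 1, 2 and 3). Scaled RPM are RPM divided by a trimmed-mean-of-M-values (TMM) factor for each library. At Pe day 0 it stood at 80.1, 158 and 51.4, from 56, 46 and 68 reads. At Pe day 3 it stood at 157, 613 and 499, from 126, 310 and 134 reads. Replicates 2 and 3 of Pe day 3 were thus above every other library, while replicate 1 lay just above the highest mock library and just under the highest Pe day 0 library. Ranked by level among the 87 to 126 miRNAs listed in a library, the 5p arm came at 26 and 25 in Pe day 3 replicates 2 and 3 and at 41 to 61 elsewhere.

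**Figure D2:**
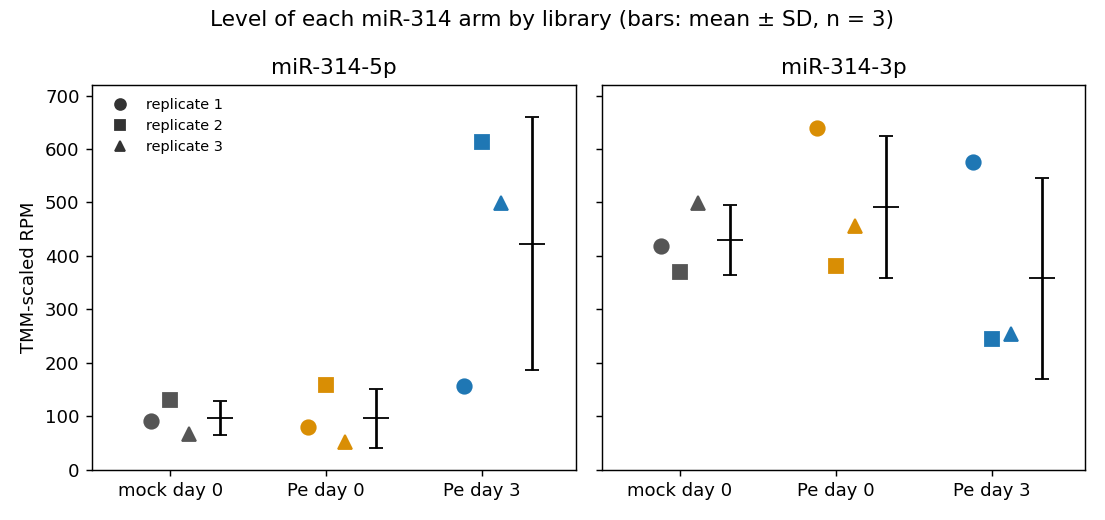
TMM-scaled RPM of miR-314-5p (left) and miR-314-3p (right) in each library, by group, with the mean ± SD of 3 libraries beside the points. The 5p arm reaches 499 and 613 in Pe day 3 replicates 3 and 2 and 51.4 to 158 in the others; the 3p arm is lowest in the same Pe day 3 libraries, at 253 and 245.

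The mean of miR-314-5p was 96.1 ± 31.8 (SD, n = 3) in mock, 96.4 ± 55 for Pe day 0 and 423 ± 237 for Pe day 3. On the log2(scaled RPM + 4.02) scale the 5p arm differed between Pe day 0 and mock by -0.09 ± 0.55 (SE from limma), when the median of all 73 miRNAs was 0.17. Between Pe day 3 and Pe day 0 it was higher by 2.02 ± 0.55, or 4.05-fold, the highest value of the 73. Between Pe day 3 and mock it was higher by 1.93 ± 0.55, or 3.81-fold, in place 4 of 73. In the authors' deposited table the difference between Pe day 3 and mock was 2.02 with a standard error of 0.56, and that between Pe day 0 and mock -0.20 with 0.57. By its mean over all 9 libraries the 5p arm came beside miR-92b-3p and miR-995-3p, with means of 228 and 205 scaled RPM and an SD of 107 and 69.5. Its own mean of 205, with an SD of 204, is a level that none of its libraries was near.

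Of the 73 miRNAs, 17.8% passed limma's adjusted p of 0.05 between Pe day 3 and mock, 4.11% between Pe day 0 and mock (3, and 1 with the replicate number as a block) and 2.74% between Pe day 3 and Pe day 0. The 5p arm was among the first set, and the 3p arm was in none. Since the 5p arm was picked with that call known, nothing is read from it. The call held in 4 of 9 fits that left out a library. Leaving out mock replicate 1 or 3, the first Pe day 0 replicate, or replicate 2 or 3 of the Pe day 3 group ended it. Median-of-ratios factors and limma voom ended it too. Between Pe day 3 and Pe day 0 the 5p arm was not called, but it was in 4 of 9 fits without a library (mock replicate 2 or 3, Pe day 0 replicate 2, or replicate 1 of Pe day 3) and in 5 of 10 other alternatives, RPM as deposited among them. Without replicate 1 of Pe day 3 the 3p arm was called lower against each day 0 group. In that fit 7 miRNAs were called against Pe day 0 and 15 against mock. In each of these contrasts the 3p arm was called in 1 of 9 fits without a library and 0 of 10 other alternatives. Nothing is read from these calls either. The libraries of Pe day 3 and mock did not overlap for the 5p arm, as for 30.1% of the 73, but the gap was narrow: with RPM as deposited the lowest Pe day 3 library was at 146 and the highest mock library at 143. The 5p arm overlapped between Pe day 3 and Pe day 0, where 24.7% of the 73 did not, and between Pe day 0 and mock, where 32.9% did not.

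miR-314-3p was the more abundant arm at day 0 and did not share the course of the 5p arm. In mock it stood at 419, 371 and 499 scaled RPM, from 222, 148 and 237 reads. At Pe day 0 it stood at 639, 381 and 457, from 447, 111 and 605 reads. At Pe day 3 it stood at 576, 245 and 253, from 462, 124 and 68 reads. The lowest 2 values of all were those of Pe day 3 replicates 2 and 3, the libraries in which the 5p arm was highest, and the groups overlapped.

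The mean of miR-314-3p was 430 ± 65.1 (SD, n = 3) in mock, 492 ± 133 for Pe day 0 and 358 ± 189 for Pe day 3. The log2 difference was 0.17 ± 0.30 (SE from limma) between Pe day 0 and mock, -0.54 ± 0.30 between Pe day 3 and Pe day 0 and -0.37 ± 0.30 between Pe day 3 and mock. These differences were within 2 SE of no change. Against mock the Pe day 3 difference shrank to -0.09 with RPM as deposited and grew to -0.77 without replicate 1 of Pe day 3, and against Pe day 0 it lay between -0.33 and -0.94 over the alternatives. The authors' deposited table gave 0.01 and -0.44 for the contrasts against mock, with standard errors of 0.35 and 0.35. In mean level the 3p arm, at 427 ± 133 (SD over 9 libraries), stood between let-7-5p, at 517, and miR-13b-3p, at 426. No test compared these levels.

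The arm ratio compares reads within a library, so no scaling between libraries enters it. In mock the 5p arm made up 17.8%, 26% and 11.9% of the reads of the hairpin, with exact 95% binomial intervals of 13.4% to 22.9%, 20.1% to 32.7% and 8.28% to 16.4%. At Pe day 0 its share was 11.1%, 29.3% and 10.1%, with intervals of 8.52% to 14.2%, 22.3% to 37.1% and 7.93% to 12.6%. At Pe day 3 it was 21.4%, 71.4% and 66.3%, with intervals of 18.2% to 25%, 66.9% to 75.6% and 59.4% to 72.8%. The 5p arm was thus the majority arm in Pe day 3 replicates 2 and 3 and in none of the other 7 libraries, and Pe day 3 replicate 1 fell inside the range of the mock group. The intervals take reads as independent and leave out the spread between libraries. PCR copies are not independent molecules, so the intervals may be too narrow even for counting error.

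**Figure D3:**
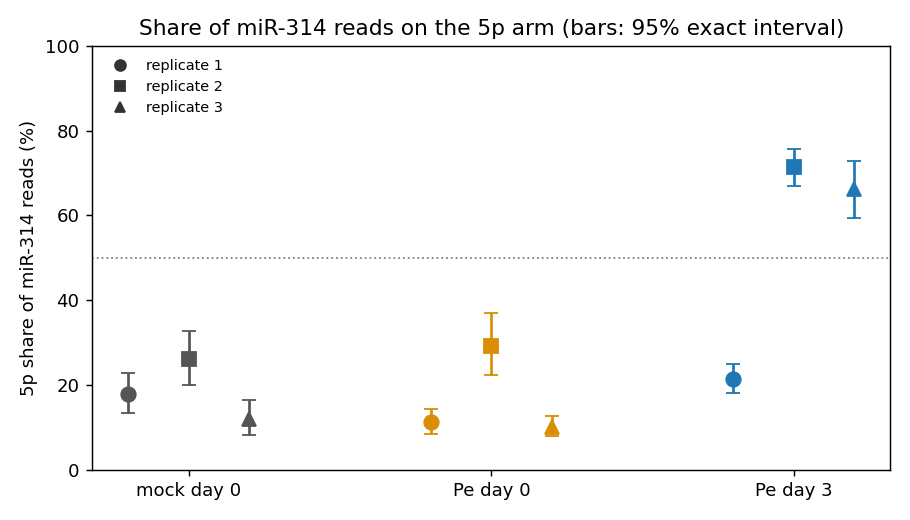
Percent of miR-314 reads on the 5p arm in each library, by group, with exact 95% binomial intervals; the dotted line marks 50%. Shares of 66.3% and 71.4% in Pe day 3 replicates 3 and 2 stand apart from 10.1% to 29.3% in the other libraries.

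The mean share of the 5p arm was 18.6% ± 7.08 (SD, n = 3) in mock, 16.8% ± 10.8 at Pe day 0 and 53.1% ± 27.5 at Pe day 3. As a ratio of reads, the 3p arm exceeded the 5p arm 4.60-fold in mock and 5.55-fold at Pe day 0 (geometric means), while at Pe day 3 the 5p arm exceeded the 3p arm 1.10-fold. The log2 ratio of 5p over 3p was -2.20 ± 0.69 (SD) in mock, -2.47 ± 1.04 at Pe day 0 and 0.14 ± 1.75 at Pe day 3. The Pe day 3 mean rests on which libraries it holds: without replicate 1 it was 1.15, and without replicate 2 it was -0.45.

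Both arms were listed in all 9 libraries for 18 hairpins. The mean log2 arm ratio of miR-314 moved by 2.34 between mock and Pe day 3 and by 2.62 between Pe day 0 and Pe day 3, the largest moves of the 18 in size, where the median moves were 0.54 and 0.61. The order against miR-34 depended on the libraries. The move of miR-314 came first in 3 of the 6 comparisons with mock that left out one of their libraries, ranging from 1.75 to 3.35, and in 4 of 6 with Pe day 0, from 2.03 to 3.62. miR-34 came first against mock without mock replicate 3, Pe day 3 replicate 2 or the third of that group, and from summed reads (2.16 beside 2.00 for miR-314). Against Pe day 0 it did so without Pe day 0 replicate 1 or the second of Pe day 3. Between mock and Pe day 0 the ratio of miR-314 moved by -0.27, at rank 11, where the median was 0.36. miR-314 also had the largest spread within groups, with a residual SD of 1.24 against a median of 0.40. The next largest move between mock and Pe day 3 was that of miR-34, at 2.29, also toward its 5p arm, with a residual SD of 0.50. Arm ratios of the groups did not overlap for 22.2% of the 18 hairpins between Pe day 3 and mock, and those of miR-314 did. The majority arm differed between libraries in 3 of the 18, namely miR-314, miR-275 and miR-958, while 10 had more 3p and 5 more 5p reads in all 9 libraries.

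**Figure D4:**
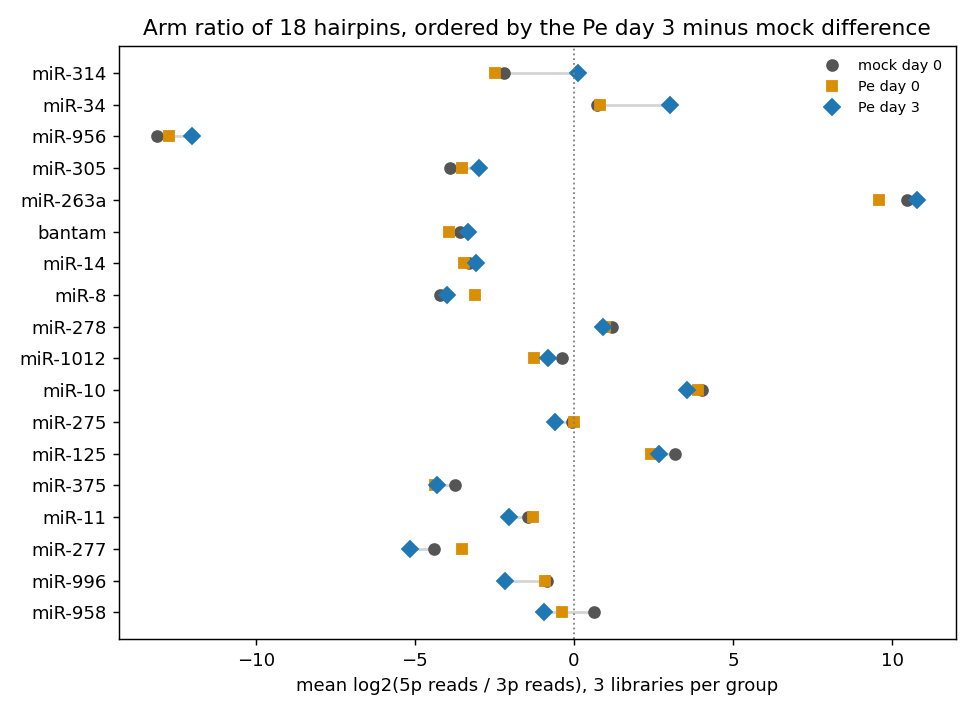
Mean log2 ratio of 5p over 3p reads in mock, Pe day 0 and Pe day 3 (3 libraries each) for the 18 hairpins with both arms in every library, ordered by the difference between Pe day 3 and mock. miR-314 moves from -2.20 to 0.14, miR-34 next, by 2.29.

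The arms were also summed. The sum was 509, 501 and 567 scaled RPM in mock, 720, 538 and 508 for Pe day 0 and 733, 858 and 752 for Pe day 3. Every Pe day 3 library was above every mock library, with means of 526 ± 35.9 and 781 ± 67.5 (SD, n = 3). Summed arms did not overlap in this contrast for 38.9% of the 18 hairpins with both arms in every library, and between Pe day 3 and Pe day 0 for 33.3%. The sum at Pe day 0 had a mean of 589 ± 114. The gap between Pe day 3 and mock was also there with median-of-ratios factors (at least 657 against at most 629), with RPM as deposited (680 against 551) and with factors from the total that leaves out the 5 most abundant miRNAs (690 against 653). The gap to Pe day 0 closed with median-of-ratios factors, where the lowest Pe day 3 library was at 657 and the highest Pe day 0 library at 704, and with the factors from that reduced total, at 690 and 715. The sum was examined after its values were seen.

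Depth moved with the 3p arm and with the arm share. The 4 shallowest libraries, with 224873 to 399569 reads, were replicate 2 of each group and Pe day 3 replicate 3. The 3p arm was at 245 to 381 scaled RPM in these and at 419 to 639 in the 5 deepest, with 497997 to 1238105 reads, and was the only 1 of the 73 miRNAs to lie lower in all 4 on this scale. With RPM as deposited 0 did. Another 3 lay higher in all 4 (bantam-5p, miR-988-5p and the row miR-276a-5p/276b-5p), and 5 did with RPM as deposited. The 5p arm was at 130 to 613 in the shallow and at 51.4 to 157 in the deep libraries, so these ranges overlapped. Its share was 26% to 71.4% in the shallow and 10.1% to 21.4% in the deep libraries, without overlap. The same split was seen in 1 other of the 18 hairpins, miR-305, also toward its 5p arm.

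Of the 4 shallow libraries 2 were of Pe day 3, so values by depth class cannot tell depth and group apart. Among the shallow libraries the mean of the 5p arm at Pe day 3 (n = 2) was 4.27 times the mock value (n = 1). Among the deep ones its Pe day 3 value (n = 1) was 1.99 times the mock mean (n = 2). That single value, 157 scaled RPM, was level with the 158 of the shallow Pe day 0 library. The 3p arm stood at 0.672 times mock in the shallow and at 1.25 times mock in the deep libraries, so its direction differed between them. The share of the 5p arm was 68.9% at Pe day 3 against 26% in mock in the shallow and 21.4% against 14.8% in the deep libraries. With 1 or 2 libraries in each cell these are values with no test. The part of depth in the level of the 5p arm at Pe day 3 was not tested. Nor was its part in the difference between Pe day 3 replicate 1 and its replicates.

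**Figure D5:**
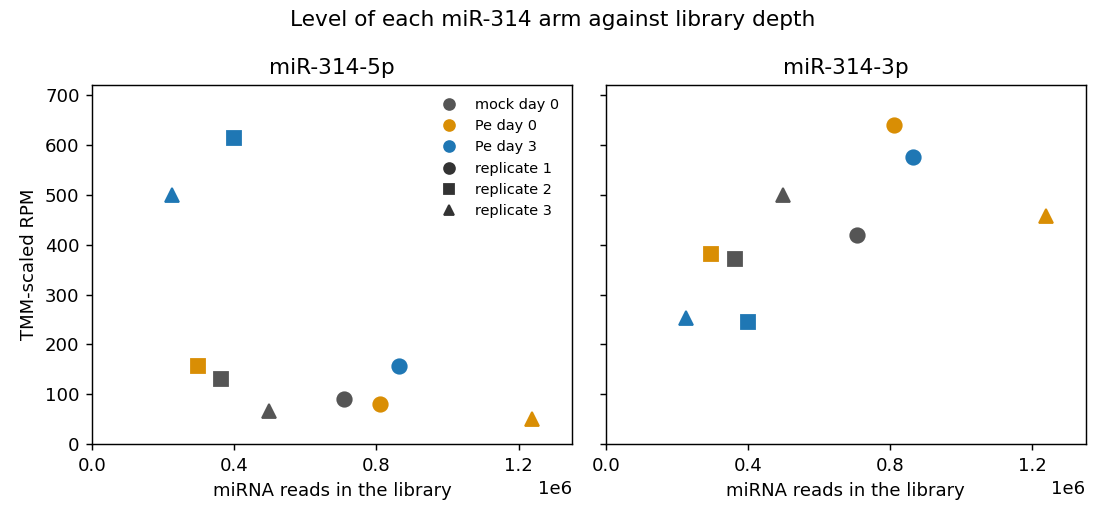
TMM-scaled RPM of miR-314-5p (left) and miR-314-3p (right) against the miRNA reads of the library; colour gives the group and shape the replicate. The 3p arm is at 245 to 381 in the 4 shallowest libraries and at 419 to 639 in the 5 deepest.

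The miRNAs most like each arm were found by the root mean square difference of log2 values over the 9 libraries, each miRNA centred on its own mean. For miR-314-5p, which itself varied by 1.14 on this measure, the nearest were miR-34-5p (0.57), miR-988-5p (0.72) and miR-1-3p (0.74). miR-34-5p, known for its role in the ageing fly brain, lay at 868 to 1603 scaled RPM in mock, 1361 to 2722 at Pe day 0 and 5035 to 9492 at Pe day 3. miR-988-5p was scarce, at 9.43 to 22.5, 14.3 to 24 and 19.9 to 41 in the same order. The muscle miRNA miR-1-3p lay at 92.7 to 116, 74.4 to 129 and 288 to 320. At Pe day 3 miR-1-3p was alike in the 3 libraries, whereas miR-314-5p was 3.90 times higher in the highest than in the lowest. In bulk midguts, a change in the number of cells that make a miRNA and a change of its level per cell cannot be told apart, and the part of muscle in the rise of the 5p arm was not tested.

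The other arm of the hairpin came at rank 67 of 72 in likeness to miR-314-5p, with a difference of 1.52. For miR-314-3p, which varied by 0.45 on the TMM scale, the nearest were miR-11-5p (0.23), miR-305-3p (0.28) and miR-956-3p (0.29). The last of these is the arm of the neighbouring hairpin, whose deposited level varied from 698305 to 801876 RPM, against 302 to 552 RPM for miR-314-3p. The log2 difference of miR-956-3p between Pe day 3 and mock was -0.34 ± 0.22 (SE from limma), beside -0.37 for miR-314-3p. With RPM as deposited these differences were -0.063 and -0.092. Since miR-956-3p makes up most reads of a library, its scaled level largely follows the TMM factor, 0.749 to 1.27. Its distance from miR-314-3p was also 0.29 with RPM as deposited, and no shared course is read from it. The scarce arm miR-956-5p had 76.3, 99.1 and 82.3 RPM in mock, 107, 101 and 141 for Pe day 0, and 93.7, 228 and 253 for Pe day 3. Its highest libraries were Pe day 3 replicates 2 and 3, as for miR-314-5p, but its 3p arm remained in large excess in every library.

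In annotated length, 7 of the 62 matched miRNAs had 24 bases or more, namely miR-314-5p, miR-34-5p, miR-956-5p, miR-317-3p, miR-282-5p, miR-190-5p and miR-375-5p. All but miR-314-5p are of 24 bases. Their log2 differences between Pe day 3 and mock ran from -0.25 for miR-375-5p to 2.75 for miR-34-5p, with 0.74 for miR-956-5p, 0.62 for miR-282-5p, 0.34 for miR-317-3p and 0.13 for miR-190-5p. Read lengths were not tested.

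A list of 7 hairpins with reported roles in the fly midgut (bantam, miR-8, miR-263a, miR-275, miR-305, miR-277 and miR-958) had 14 arms tested. Between Pe day 3 and mock, 3 were called higher and 1 lower (limma voom called 3 in all), beside 13 of all 73, or 17.8%. The median log2 difference of the list was 0.02 beside 0.21 over all 73. In the other contrasts limma called 0 of the 14, and limma voom called 0. An unadjusted p under 0.05 was reached by 6 of the 14 beside 20 of the 73 between Pe day 0 and mock, and by 2 of the 14 beside 13 of the 73 between Pe day 3 and Pe day 0.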

How the data were processed

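Small RNA was sequenced from 9 midgut libraries in 3 groups of 3. Per the labels, total RNA extracted with TRIzol entered the Illumina TruSeq small RNA kit. The deposited table holds RPM, and its name gives the tool miRge. For the aligner, the miRNA database and the build, nothing is given in the sources used here. A comparison table deposited by the authors holds a mean signal per miRNA, log2 fold changes with standard errors, a Wald score and p-values. Its columns are those of DESeq2, per the file headers, and DESeq2 1.22.0 is named in the submitters' processing notes. Its contrasts are unnamed. They were matched to Pe day 0 over mock and Pe day 3 over mock, by the log2 ratio of mean reads divided by median-of-ratios factors. Over the 47 miRNAs with a deposited mean above 50, these ratios differed from the deposited ones by at most 0.033 and 0.045, while each other pairing differed by at least 1.23.

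The RPM were whole multiples of a step in each library, to within 4.53e-07 reads, and the smallest listed value was 2 reads. Reads and depths were recovered from these steps. A further check needed for a count model was not met, since too few low values were listed, so no count model gave the calls. The recovered reads were still used for depths, TMM factors, limma voom as an alternative and the binomial intervals. These uses take them as counts.

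RPM were divided by TMM factors, with 30% of the log ratios and 5% of the abundances trimmed at each end. miRNAs with at least 20.1 RPM (10 reads at the median depth of 497997) in 3 libraries were kept. limma 3.58.1 in R 4.3.3, with trended robust variances, was fitted to log2(scaled RPM + 4.02) of all 9 libraries. That pseudocount of 2 reads makes fold changes of scarce miRNAs too small. A call is a Benjamini-Hochberg adjusted p under 0.05. The script was tested on simulated data that left out the most abundant miRNAs and had a fixed spread. That test does not show how the fit performs on libraries such as these. p-values measure the spread between libraries, which may be technical.

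Deviations from the group means of same-numbered libraries correlated by 0.24 to 0.43 between mock and Pe day 0. They correlated by -0.02 to 0.08 between mock and Pe day 3 and by -0.26 to 0.22 between Pe day 0 and Pe day 3. The labels do not say that the numbers mark pairs. The limma fit behind the printed differences left them out, so its SE between Pe day 0 and mock ignore any pairing. Replicate 2 was the shallowest library of mock and of Pe day 0, and whether depth or pairing lies behind their correlation was not tested. The named miRNAs are both arms, the 3 most like each, their neighbours in level and on the chromosome, and hairpins with both arms in all libraries. miRNAs of the same seed were to be named too and were left out, since no sequences were used here. The members and lists were chosen with earlier results of these data known. Scaling, pseudocount, filter, the replicate block, the groups in the fit, limma voom and single libraries were varied.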

Additional observations from a re-analysis of the deposited data

How the results depend on the processing

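Leaving out 1 of 3 libraries can hardly move a group difference by more than the SD within groups, so those fits are not set against it. That SD was 0.80 for 5p and 0.47 for 3p. For 3p it was larger in size than the difference between Pe day 3 and mock (-0.37), so it is a wide yardstick. Under the other settings the log2 differences of both arms moved by less than that SD. Those of miR-314-5p stayed positive between Pe day 3 and mock, at 1.73 to 2.20 under other settings and 1.35 to 2.53 without a library, and between Pe day 3 and Pe day 0, at 1.84 to 2.23 and 1.61 to 2.61. Those of miR-314-3p ran from -0.57 to -0.09 and -0.77 to -0.30 against mock, and from -0.62 to -0.33 and -0.94 to -0.34 against Pe day 0. The small differences between Pe day 0 and mock turned sign in 2 alternatives for each arm. The arm ratio at Pe day 3 turned sign in 3 of 5 alternatives, with log2 values from -0.45 to 1.15 without a library and -0.20 from summed reads. The summed arms differed between Pe day 3 and mock by 0.57, by 0.85 with RPM as deposited and by 0.37 with a total that leaves out the 5 most abundant miRNAs, and by 0.29 (without Pe day 3 replicate 2) to 0.61 without a library. They differed between Pe day 3 and Pe day 0 by 0.63 with RPM as deposited (0.42 with TMM; 0.31 to 0.58 without a library) and between Pe day 0 and mock by -0.040 with median-of-ratios factors (0.15 with TMM; -0.02 to 0.20 without a library). These alternatives for the sum were chosen after seeing the data. Counts of limma calls moved more. Between Pe day 0 and mock (3) they were 0 with RPM as deposited, 0 without the filter, 7 with a filter of 100 RPM and 11 with only those groups. At the counts of 0, 16 and 22 of the miRNAs had an unadjusted p under 0.05, and limma voom called 2. Between Pe day 3 and Pe day 0 (2) the calls were 4 with RPM as deposited, 4 with a total that leaves out the 5 most abundant miRNAs and 4 without the filter. The replicate block gave 1 call between Pe day 0 and mock, 6 between Pe day 3 and Pe day 0 and 14 between Pe day 3 and mock (13), and among the arms it added the call of miR-314-5p between Pe day 3 and Pe day 0. Without a library the calls ranged from 0 to 8, from 2 to 7 and from 4 to 15 in the contrasts Pe day 0 against mock, Pe day 3 against Pe day 0 and Pe day 3 against mock. The cause was not tested. The 5p arm rests on 32 to 68 reads in each day 0 library, which limits its ratio there.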
